A study of Oryza sativa with 3 samples.

Results

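The circadian clock genes of rice were examined in leaves, as the probe sets whose single annotated gene is GI, LHY, PRR1, PRR37, PRR59, PRR73 or PRR95. The array annotation held 6 of these 7 genes, with 9 probe sets among the 57194 analysed, and PRR59 was not analysed here. The plants were of the japonica cultivar Kitaake, grown in a greenhouse for 6 weeks, and no mutant or treatment was included. The samples form 1 group of 3 replicates from plants raised together, and each was hybridised to 1 Affymetrix rice array and measured as log2 signal. Nothing in the labels gives the hour of harvest, the day length or the number of plants behind a replicate, so a level cannot be placed within the daily cycle, and part of the spread over replicates may be technical. In leaf tissue, fewer cells that express a gene and less RNA per cell cannot be told apart.

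The plant clock is a loop of genes that repress one another in turn over the day. LHY, a MYB-type transcription factor, peaks around dawn and represses genes that peak later. The pseudo-response regulators (PRR proteins) follow one after another from morning to evening and repress LHY, and PRR1 is the rice counterpart of TOC1 of Arabidopsis. GI (GIGANTEA), a large plant-specific protein that peaks towards evening, links the clock to day length and, in rice, to the flowering regulator Hd1.

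All 6 clock genes gave signal above background on every array. Background is the 95th percentile of the 64 reporter probe sets, which lay at 5.64, 5.60 and 5.77 in replicates 1, 2 and 3. Of the 9 clock probe sets 8 exceeded it on all 3 arrays, where 47.1% of all probe sets did. By gene it was 6 of 6, where 74.3% of 17905 genes did. The brightest probe set of each clock gene lay at or above the 96.3th percentile of all probe sets on every array. Choosing the brightest favours a high rank, since all probe sets include the dimmer ones of each gene and 34663 without an annotated gene. The lowest percentile of the other probe set was 25.7 for LHY, 71.2 for PRR37 and 92.5 for PRR73. Probes differ in how brightly they report a transcript, so the genes are not ranked against one another. Errors below are SDs over n = 3 arrays, whose small number limits their precision.

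**Figure D1:**
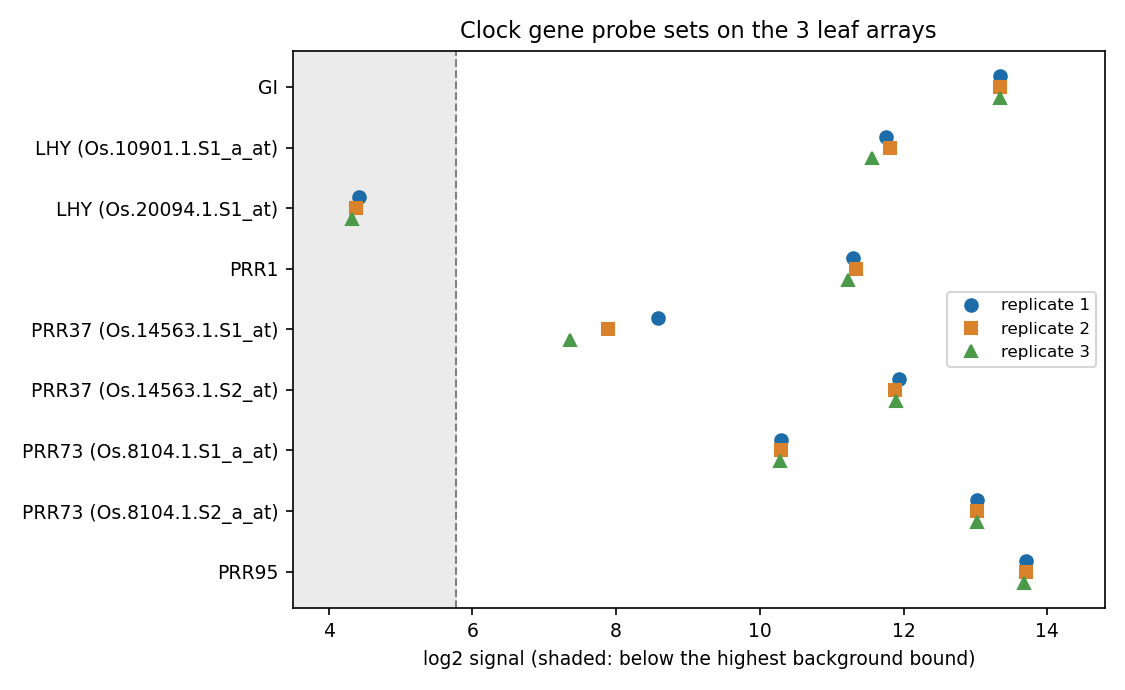
Log2 signal (x axis) of each clock gene probe set (rows) in replicates 1, 2 and 3, with the shaded zone below the highest background bound, 5.77. Of the 9 probe sets, 8 lie above the zone on every array, and the second LHY probe set lies inside it.

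The dawn gene LHY (LOC4344703) had log2 signals of 11.75, 11.81 and 11.55 in replicates 1, 2 and 3 with probe set Os.10901.1.S1_a_at, a mean of 11.71 ± 0.13. Replicate 3 was the lowest and replicate 2 the highest, 1.20-fold apart. That was the widest range among the brightest probe sets of the 6 clock genes. Of the 616 probe sets within 0.25 of its mean signal, 20.0% had a larger SD. The range was 0.26 on the log2 scale over all arrays and 0.06 without replicate 3. The other LHY probe set, Os.20094.1.S1_at, gave 4.43, 4.38 and 4.33, below background on every array.

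PRR73 (LOC4332464) and PRR37 (LOC4344399) are the pair of rice regulators most like PRR7 and PRR3 of Arabidopsis. PRR73 gave 13.02 in each of the 3 replicates with probe set Os.8104.1.S2_a_at. Its second probe set, Os.8104.1.S1_a_at, gave 10.30, 10.29 and 10.28, so both probe sets of PRR73 were nearly level over the arrays. PRR37, known as the heading-date gene Hd2 or DTH7 and a repressor of flowering in long days in rice, gave 11.93, 11.88 and 11.90 with probe set Os.14563.1.S2_at. These values spanned 0.05 on the log2 scale.

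The other PRR37 probe set, Os.14563.1.S1_at, gave 8.58, 7.89 and 7.36 in replicates 1, 2 and 3. All 3 values were above background, replicate 1 was the highest and replicate 3 the lowest, and the ends were 2.33-fold apart (7.94 ± 0.61). It was the only clock probe set of the 9 to span at least 2-fold, which 0.972% of all probe sets did. Of the 2304 probe sets within 0.25 of its mean signal, 22 (0.955%) had a larger SD. The range was 0.53 on the log2 scale without replicate 1, 1.22 without replicate 2 and 0.69 without replicate 3, so the 2-fold span needs both replicates 1 and 3. Replicate 3 minus the mean of the others was -0.88, while the median difference for those 2304 probe sets was -0.13.

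PRR95 (LOC4347674), of the branch related to PRR5 and PRR9 of Arabidopsis, gave 13.71, 13.71 and 13.68 (13.70 ± 0.02). PRR1 (LOC4330000), the evening-phased regulator, gave 11.29, 11.33 and 11.23 (11.28 ± 0.05). Replicate 3 was the lowest for both genes, by small margins: the range was 0.03 for PRR95 and 0.10 for PRR1. GI (LOC4325329) gave 13.34 on every array.

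GI and the brighter PRR73 probe set were equal on all 3 arrays within a tolerance of 1e-09, which makes 2 of 9 clock probe sets, where 24.2% of all probe sets were equal. Among probe sets within 0.25 of their mean signals the share was 8.62% for GI and 6.67% for PRR73. Such ties are usual where RMA summarises few arrays by median polish, so an SD of 0.00 here is no measure of error. Ties of 2 arrays were common too. Of all probe sets, 47.7% were equal in replicates 1 and 2, 30.3% in 1 and 3, and 30.0% in 2 and 3. PRR95 and, below, PCL1, XCT and DTH8 were tied in replicates 1 and 2, and Hd1 on all 3 arrays. Their equal values are likewise no measure of error.

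**Figure D2:**
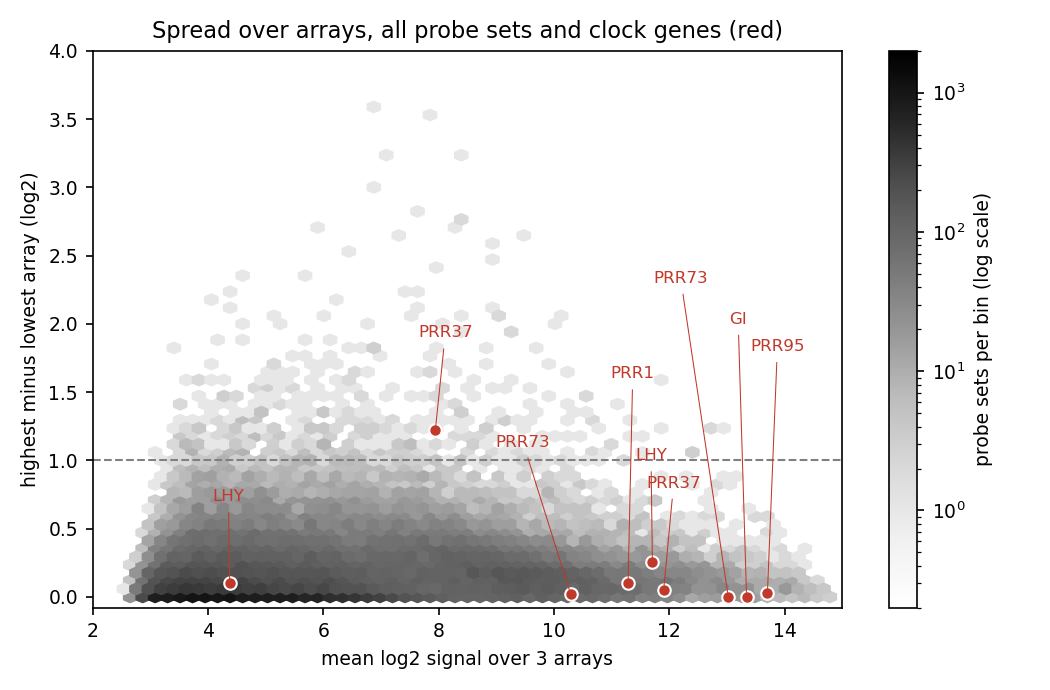
Highest minus lowest array (y axis, log2) against mean log2 signal (x axis) for all 57194 probe sets, as grey bins on a log colour scale, with the 9 clock probe sets in red and the 2-fold line dashed. A single clock probe set, the dimmer one of PRR37, lies above the line, at 1.22, and the others lie at or below 0.26.

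LHY, PRR37 and PRR73 each had more than one probe set. The size of the gap between probe sets of a gene cannot be read as an amount. Its change over arrays can be described, but shifts between arrays depended on signal and enter it where the signals differ. For PRR73 the brighter probe set exceeded the dimmer by 2.72, 2.73 and 2.75 in replicates 1, 2 and 3, a gap that varied by 0.02. That variation is the range of the dimmer PRR73 probe set, 0.02, since the brighter was tied on all 3 arrays. The dimmer LHY probe set was below background, so no gap is given for LHY, and 40.2% of the 3444 genes with several probe sets likewise had probe sets on both sides of the bound. For PRR37 the gap was 3.35, 3.99 and 4.54, widest in replicate 3 and narrowest in replicate 1, a gap that varied by 1.19. This change restates the range of the dimmer probe set, 1.22, since the brighter one spanned 0.05. Probe sets of like signal had a median replicate 3 minus the others of -0.13 near the dimmer one and -0.02 near the brighter one.

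PRR37 was 1 of 37 genes (1.07% of the 3444) in which a probe set spanned at least 2-fold while another spanned at most 0.1. With all probe sets above background it was 1 of 14 (0.407%). Both PRR37 probe sets carry the same cluster number in their names, and the RefSeq gene table lists, predicted ones included, 20 transcripts for PRR37, 20 for LHY, 9 for PRR73, 7 for GI, and 1 each for PRR1 and PRR95. Which transcripts each probe set reads was not analysed here. Of the control transcripts, actin had a 3′ minus 5′ difference of 2.13, 2.24 and 2.63 in replicates 1, 2 and 3, widest in the replicate where Os.14563.1.S1_at was lowest. The same difference was 0.55, 0.50 and 0.55 for cyclophilin and 1.44, 1.43 and 1.45 for GAPDH. For ubiquitin it was -0.21, -0.20 and -0.20. Among the added spike transcripts it was 4.14, 4.18 and 4.78 for dap, 0.78, 0.87 and 1.29 for lys, 1.18, 1.25 and 1.46 for phe, and 3.42, 3.60 and 3.44 for thr. It was thus widest in replicate 3 for 3 of the 4 spikes, and its part in the PRR37 values was not tested.

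**Figure D3:**
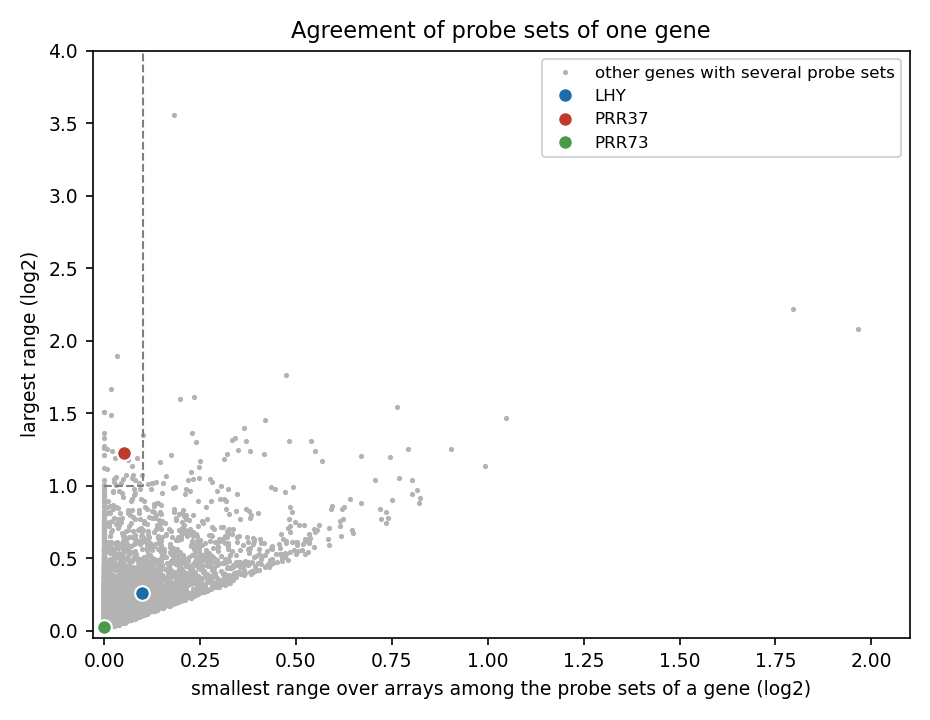
Smallest (x axis) against largest (y axis) range over arrays among the probe sets of each gene, in log2, for the 3444 genes with several probe sets, with the dashed corner enclosing ranges of at most 0.1 and at least 1. PRR37 lies inside the corner, at 0.05 and 1.22, while LHY (0.10 and 0.26) and PRR73 (0.00 and 0.02) lie outside it.

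The order of the replicates was compared over the members. Replicate 3 was lower than both others in 6 of the 9 clock probe sets, where 34.5% of all probe sets were, and replicate 3 was the highest in 0 of 9, where 23.7% were. By gene, with the brightest probe set each, replicate 3 was lowest in 3 of 6 (LHY, PRR1 and PRR95), where 49.3% of all genes were, so the count by gene was near that of all genes. The low side of replicate 3 depended on signal: among probe sets within 0.25 of each clock probe set, the share lowest in replicate 3 ran from 18.7% beside the dimmer LHY probe set to 63.2% beside the dimmer PRR37 probe set. The median shift of the 6 genes, 1 array minus the mean of the others, was 0.01 for replicate 1, 0.01 for replicate 2 and -0.02 for replicate 3. Over all genes it was 0.01, 0.02 and -0.04. The median SD was 0.02 for the clock genes, 2 of whose 6 SDs are the ties over all 3 arrays described above. For all genes it was 0.08, where the median signal was lower (8.11 against 12.46). Probe sets within 0.25 of the brightest clock probe sets had median SDs from 0.048 for GI to 0.067 for LHY.

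**Figure D4:**
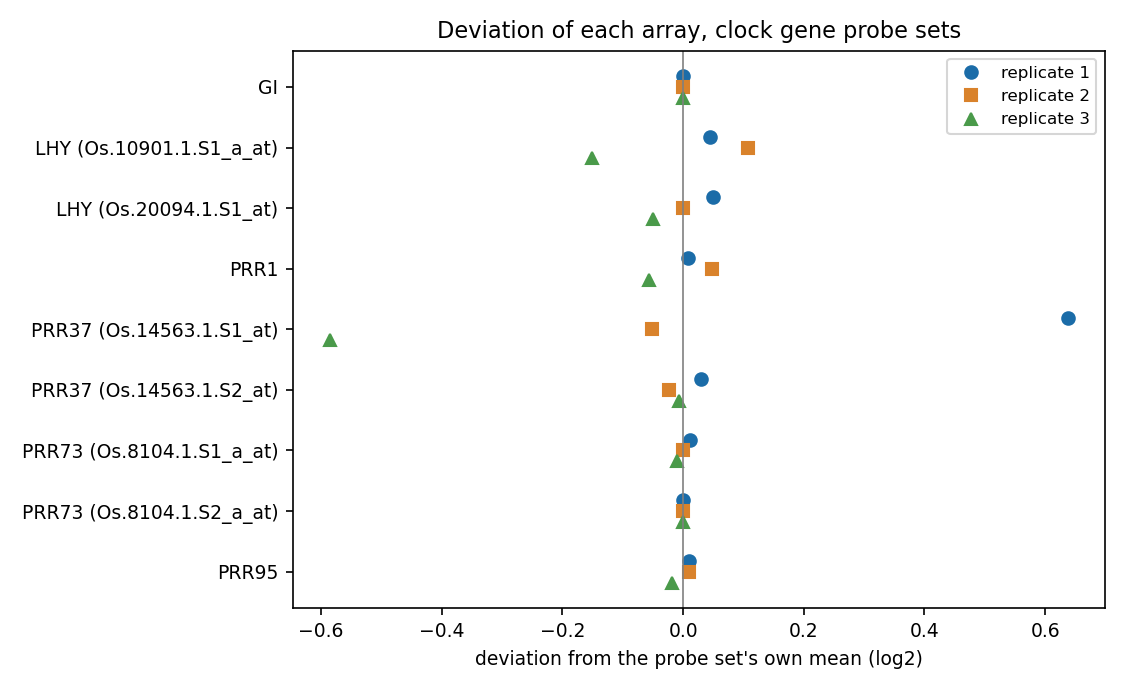
Deviation of each array from the probe set's own mean (x axis, log2) for the 9 clock probe sets (rows). The dimmer PRR37 probe set spans 1.22, the brighter LHY probe set 0.26, and the other 7 at most 0.10.

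Of the genes known to act beside this loop, 4 were measured. All 4 were above background on every array, where 74.3% of all genes were. Of the 36 names in this list, some of them synonyms, 25 were not matched in the gene table, and ELF3 of the evening complex was not analysed here. PCL1 (LOC4326391) is the rice relative of LUX, a DNA-binding member of the evening complex of Arabidopsis, which represses genes at night. It gave 11.20 in replicates 1 and 2, a tie of the kind described above, and 11.43 in replicate 3. Replicate 3 was thus the highest for PCL1 and the lowest for LHY, and LHY exceeded PCL1 by 0.55, 0.61 and 0.13 in replicates 1, 2 and 3. Since these are different probe sets, the size of that difference on a single array cannot be read. Its change between arrays is a description only. The spread of such changes over other pairs of like signal was not analysed here, and array shifts that depend on signal may enter it. LHY minus PRR1 changed less, at 0.46, 0.48 and 0.33. Of the 807 probe sets within 0.25 of the PCL1 mean, 20.1% had a larger SD and 17.2% were highest in replicate 3.

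CKI (LOC4334396), the casein kinase I also named EL1 or Hd16, which phosphorylates regulators of flowering in rice, gave 9.93, 9.87 and 9.60. Replicate 3 was the lowest, 1.26-fold below replicate 1. PRMT5 (LOC4328251), an arginine methyltransferase needed for normal clock period in Arabidopsis, gave 7.68, 7.89 and 7.65, highest in replicate 2. XCT (LOC4347694), the counterpart of XAP5 CIRCADIAN TIMEKEEPER of Arabidopsis, gave 10.19 in replicates 1 and 2 and 10.18 in replicate 3. The median shift of these 4 genes was -0.05, 0.05 and -0.07 in replicates 1, 2 and 3.

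The flowering regulators downstream of the clock did not share 1 order over the arrays. Hd1, which GI acts on, gave 6.93 on every array and DTH8, a subunit of a CCAAT-binding complex, gave 7.96, 7.96 and 7.72. The florigen gene Hd3a was highest in replicate 2, as LHY and PRR1 were, but by a wider margin (11.07, 11.48 and 11.10). Of the 826 probe sets within 0.25 of its mean, 6.17% had a larger SD. The share of them highest in replicate 2 is not given here. OsMADS50, a flowering promoter, was highest in replicate 1 and lowest in replicate 3 (8.94, 8.54 and 8.42). The dimmer PRR37 probe set had this order too, as did 26.2% of the probe sets within 0.25 of the OsMADS50 mean and 21.7% of those near the PRR37 probe set. Near the OsMADS50 mean 7.52% of 2206 probe sets had a larger SD, and near the DTH8 mean 44.7% of 2302 did.

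**Figure D5:**
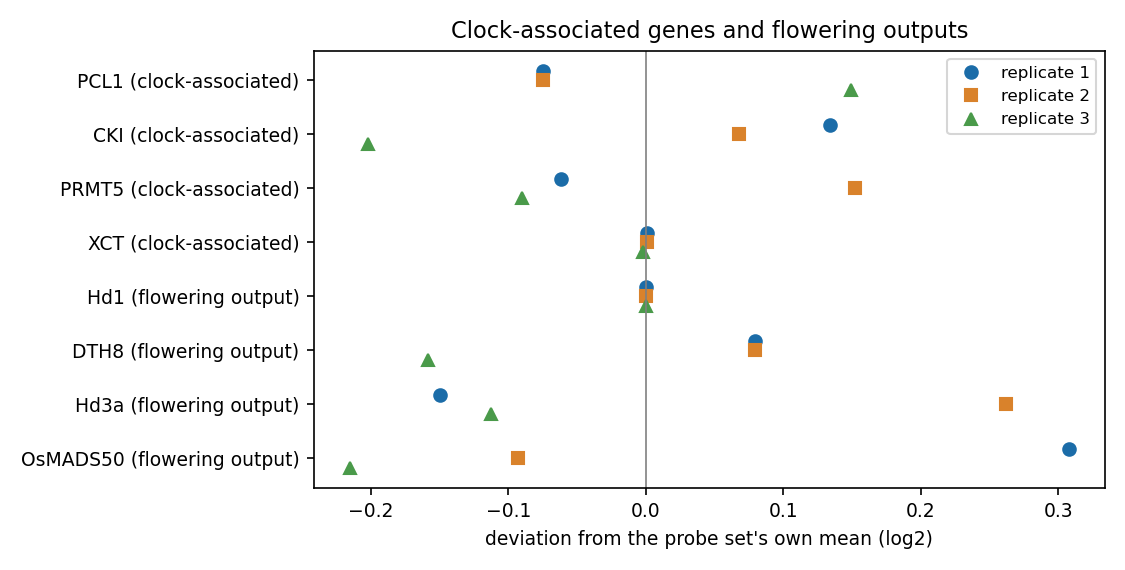
Deviation of each array from the probe set's own mean (x axis, log2) for 4 clock-associated genes and 4 flowering regulators (rows). PCL1 is highest in replicate 3, where CKI and PRMT5 are lowest, and Hd1 and XCT are nearly level.

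The genes most like LHY over the arrays were sought by the distance between deviations from each gene's own mean. Among genes with a published name and above background they were MCCA at 0.0116, CARM1 at 0.0133 and OsPDIL5-4 at 0.0136 (log2 units). MCCA gave 9.36, 9.43 and 9.18. Of the 13298 genes compared, named or not, 57 were as close as OsPDIL5-4 or closer, and likeness over 3 arrays is a description only.

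The tissue label was checked with markers. The 4 leaf genes measured (rubisco activase, 2 light-harvesting genes and plastocyanin) had means from 14.10 to 14.66. Of 10 genes that mark root, meristem, anther or seed, 6 were above background on every array, where 74.3% of all genes were. These were Lsi1, IRT1, FON1, MSP1, GLUA-2 and GLB, with means from 7.96 (IRT1) to 9.96 (GLB), where the median over all genes was 8.11. Lsi2, OSH1, TDR and CYP703A3 were not above background. Replicates 1 and 2 correlated with r = 0.998 and replicate 3 with r = 0.995 to either over all probe sets, which share these arrays and are no replicates of one another.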

How the data were processed

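The authors deposited a log2 signal for each probe set, made with RMA per the submitters' processing notes. Its version and settings are not given in the sources. The 3 columns shared a median of 5.63, which fits between-array normalization. Their 75th percentiles differed, at 7.91, 7.93 and 7.80 in replicates 1, 2 and 3, so the distributions were not equal above the median. Of 57381 probe sets, 57194 remained after 187 control and reporter probe sets were removed. The platform annotation gave 1 gene for 22436 probe sets, several for 95 and none for 34663. All 17905 genes were found by identifier in the RefSeq gene table (assembly ASM3414082v1), which served for names only. Where a gene had several probe sets, those ending in _x_at or _s_at were passed over if others existed, and the brightest of the rest gave its value.

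Members and lists were chosen with earlier results of these data known. Named genes are every clock probe set, every matched clock-associated gene, up to 4 flowering regulators, and the 3 genes with a published name most like LHY, whose range was the widest among the brightest probe sets of the clock genes. The tissue-marker name RAG matched the floral gene MADS3 and was dropped. With 1 group there is no contrast, so no test was run. The counting of ranges was run on simulated data with added changes far larger than the noise, and without ties or shifts that depend on signal. It therefore checks the code only. Alternatives were other background bounds, other probe-set rules, quantile normalization again, median centring and leaving out each replicate. Python 3.11.15, numpy 2.4.6, pandas 2.3.3 and matplotlib 3.10.9 were used.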

Additional observations from a re-analysis of the deposited data

How the results depend on the processing

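The counts of clock genes (6), clock probe sets (8) and clock-associated genes (4) above background were the same with the bound at the highest reporter. They were also the same with the bound at the median of all probe sets and without each replicate, which could hardly change them. That median, 5.63, lay near the bounds used, 5.64, 5.60 and 5.77. Leaving out a replicate cannot lower such counts. The only clock probe set not counted, the dimmer LHY probe set, was below background on every array, so the counts could not rise either. The median signal of the clock genes, 12.46, was 11.47 with the mean over all probe sets of a gene and 12.49 as a mean over genes, and their median SD of 0.0213 was 0.0384 as a mean, 0.0342 with the mean over all probe sets, and 0.0140 to 0.0225 when replicates were left out. The median shift on replicate 3, -0.0186, was -0.0559 with the mean over all probe sets of a gene and -0.0583 as a mean over genes. That on replicate 2, 0.00676, was 0.0353 as a mean over genes, and that on replicate 1, 0.0131, was 0.0318 without replicate 2 and 0.0230 as a mean over genes, and 0.00666 with quantile normalization again. When replicates were left out the shift ran from 0 to 0.0318 on replicate 1, from 0 to 0.0135 on replicate 2 and from -0.0318 to -0.0135 on replicate 3. The count of clock probe sets spanning at least 2-fold, 1, ran from 0 to 1 when replicates were left out, an alternative chosen after seeing the data, and was 1 with quantile normalization again, where the PRR37 range was 1.12. The gene values of LHY, PRR37 and PRR73 as means of their probe sets were 8.04, 9.92 and 11.65. Centring on the median changed nothing, since the medians were equal. No paired analysis was possible because there is 1 group.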

Other observations

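Among the 1895 genes with a published name and above background, those nearest in pattern to the dimmer PRR37 probe set, a comparison chosen after its values were seen, were JAZ4, a repressor of jasmonate signalling, the small heat shock gene HSP22.3 and the urea transporter DUR3. JAZ4 gave 7.59, 7.15 and 6.73 in replicates 1, 2 and 3, HSP22.3 gave 7.97, 7.69 and 7.08, and DUR3 gave 6.64, 6.11 and 5.87. Of the 13298 genes above background, named or not, 13 were as close as JAZ4 or closer, at a distance of 0.27. Among the 14 genes with the same contrast between probe sets as PRR37, all above background, PRR37 ranked number 4 by its largest range, and OsPHO1;2 and eIF-4G were also on that list, with largest ranges of 1.21 and 1.01.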
